A study of Homo sapiens with 18 samples.

Results

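The comparison is between cells kept for 72 h and cells kept for 48 h in 50 nM PRT3789, a degrader selective for SMARCA2. The cells are of the line NCI-H1693, grown from a human non-small cell lung cancer and described in the labels as SMARCA4-deficient. Each of the 2 groups has 3 libraries, so 6 of the series' 18 libraries carry the comparison. All 43236 gene symbols of the deposited table were considered, and 16085 of them had counts high enough to be tested. The other libraries are cells of the same line in DMSO, the vehicle, at 6, 48 and 72 h, and cells in 50 nM PRT3789 at 6 h, with 3 libraries in each of the 6 groups. The 6 DMSO libraries of 48 and 72 h show what the same elapsed time did without the compound, and the 6 h libraries enter only the scaling of levels, an alternative fit with all 18 libraries and descriptions of where a gene started. All groups share the SMARCA4-deficient background and come from 1 line, and there is no group with SMARCA4 restored. The labels number the replicates without saying that they came from separate cultures, so the p-values measure the spread between these libraries, which may be technical.

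SMARCA2 and SMARCA4 are the alternative ATPase motors of the SWI/SNF (BAF) complexes, which move and eject nucleosomes and so open enhancers and promoters to transcription factors. A cell that has lost SMARCA4 depends on SMARCA2 for this activity, which is the reason for degrading SMARCA2 in SMARCA4-deficient lung cancer. A degrader removes the protein through the ubiquitin-proteasome system and leaves the gene and its mRNA in place. Culture time also changes transcription by itself, through cell density, medium use and growth factor signalling, and immediate early genes such as FOS and EGR1 are the textbook readout of such signals.

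The 3 PRT3789 libraries of 48 h held 23154484 to 28702666 counts and those of 72 h 27426393 to 27918696. Levels are given as CPM, a gene's count divided by its library's total in units of 1e+06 counts, with totals scaled by the TMM method over all 18 libraries. The median standard deviation of log2 CPM between replicates was 0.0643 in PRT3789 at 48 h and 0.0669 at 72 h, against 0.119 and 0.0725 in DMSO, over 11053 genes with a mean of at least 5 CPM. Ribosomal protein genes took 5.15% ± 0.269 of counts at 48 h and 4.53% ± 0.129 at 72 h in PRT3789 (SD, n = 3), and 6.48% ± 0.782 and 4.94% ± 0.359 in DMSO. The line's epithelial markers were present in all 6 PRT3789 libraries: EPCAM was at 556 to 612 CPM, KRT8 at 1740 to 2200, KRT18 at 1280 to 1620 and CDH1 at 158 to 183. The haemoglobin gene HBB was at 0 in all 6, and the leukocyte marker PTPRC did not exceed 0.95 CPM. Of the 28 blood cell markers, 25 were under 1 CPM and their summed level was 9.84 to 11.2 CPM at 48 h and 7.91 to 9.48 CPM at 72 h. The 24 endothelial and fibroblast markers summed to 116 to 123 CPM at 48 h and 133 to 146 CPM at 72 h. Of the fibroblast markers, COL1A1 was at 17.1 to 23.4 CPM, PDGFRA at 0.595 to 1.07 CPM and DCN at 0.289 CPM or less. The endothelial markers PECAM1, CDH5 and VWF did not exceed 0.207 CPM. Of the 13 tested members, LUM was called higher at 72 h (7.69%, against 3.17% of all genes) and none lower.

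Some single PRT3789 libraries held genes at a higher level than both other libraries of their group. On the scale of log2 CPM with a prior count of 2, and among genes with a log2 CPM above 1 in that library, replicate 3 of 48 h had 19 genes more than 2-fold above both others, among them the surfactant genes SFTPA1 (2.18 CPM against 0.0354 and 0) and SFTPA2 (4.3 CPM against 0 and 0), HLA-DRA (6.97 CPM against 2.19 and 0.702) and CD74 (11.5 CPM against 5.45 and 2.73). Replicate 2 of 48 h had 9 such genes, including the liver genes ALB (40.9 CPM against 10.6 and 15.4) and AFP (20.5 CPM against 7.68 and 5.16). Replicate 1 of 72 h had 12, including the basal keratins KRT5 (7 CPM), KRT6A (6.9 CPM) and KRT14 (2.72 CPM), each at 0.207 CPM or less in the other 2. The remaining 3 libraries had 2, 9 and 5 such genes. None of these genes was called in the comparison of 72 with 48 h.

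Between 48 and 72 h in PRT3789, 510 genes were called higher and 312 lower by edgeR's quasi-likelihood test at a Benjamini-Hochberg adjusted p under 0.05, which is 3.17% and 1.94% of the 16085 genes tested. The called changes were mostly small. Their median size was 0.34 on the log2 scale, 72 genes were at least 1.5-fold higher and 63 at least 1.5-fold lower, and 12 and 25 passed 2-fold. The CPM of the 2 groups did not overlap for 821 of the 822 called genes, and for 30.8% of all tested genes. The fit used the 12 libraries of 48 and 72 h from both arms. The 6 h libraries were left out because earlier results of these data gave them a wider spread. The counts differ with the libraries in the fit: they were 162 higher and 73 lower with all 18 libraries and 1287 and 901 with the 6 PRT3789 libraries alone. Without replicate 1, 2 or 3 of PRT3789 at 48 h they were 290 and 132, 213 and 104, and 243 and 116. Without replicate 1, 2 or 3 at 72 h they were 233 and 123, 328 and 143, and 265 and 125. Without replicate 1 of DMSO at 48 h they were 846 and 613. Of the 149 genes selected by the naming rules and called, 64 stayed called under all alternatives and none changed direction.

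In DMSO over the same interval, 1615 genes were called higher and 1420 lower, 10.0% and 8.83% of those tested. The 2 comparisons share no library. Of the 510 genes higher in PRT3789, 192 were also called higher in DMSO, which is 37.6% of the PRT3789 list and 11.9% of the DMSO list. Of the 312 lower genes, 116 were also lower in DMSO, 37.2% and 8.17% of the 2 lists. Only 7 of the genes higher in PRT3789 (1.37%) and 4 of those lower (1.28%) were called in the opposite direction in DMSO. Across the 11053 genes with at least 5 CPM, which are not independent replicates, the log2 changes of the 2 arms had a Pearson r of 0.392. Over all tested genes, weakly expressed ones included, r was 0.053. The DMSO counts also move with single libraries: they were 2676 and 2243 without replicate 1 of DMSO at 48 h, 896 and 864 without replicate 2, 1004 and 829 without replicate 3, and 497 and 583 without replicate 3 of 72 h. With all 18 libraries they were 63 and 25, so that 71.6% of the calls were higher in place of 53.2%.

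Whether the change in PRT3789 differed from the change in DMSO was tested as an interaction in the same fit. It was called higher for 125 genes and lower for 169, or 0.777% and 1.05% of those tested. This test is the least stable of the 3. With all 18 libraries in the fit edgeR called no gene, the lowest adjusted p was 0.0582, and 1476 genes had an unadjusted p under 0.05; DESeq2 on the 12 libraries called 332 higher and 441 lower. Without replicate 1 of DMSO at 48 h the counts were 1084 and 1301, without replicate 2 they were 25 and 22, and without replicates 2 and 3 of DMSO at 72 h, each in turn, 35 and 43, and 40 and 24. Without replicates 1, 2 and 3 of PRT3789 at 48 h they were 14 and 14, 66 and 60, and 19 and 15. Without those of 72 h they were 28 and 29, 92 and 106, and 13 and 8. Of the 45 named genes with a called difference, 12 were lost only in the fit with all 18 libraries: BMP4, CHAC1, FADS2, GADD45A, HLA-B, ID2, ID3, KISS1, SCD, TMEM130 and the 2 rows of PLCXD1. Every difference between the arms given below is from the 12-library fit. Transcript length also went with this difference, with a Spearman rho of -0.160 across 14869 genes, against 0.068 for the change in PRT3789 and 0.217 for that in DMSO.

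**Figure D1:**
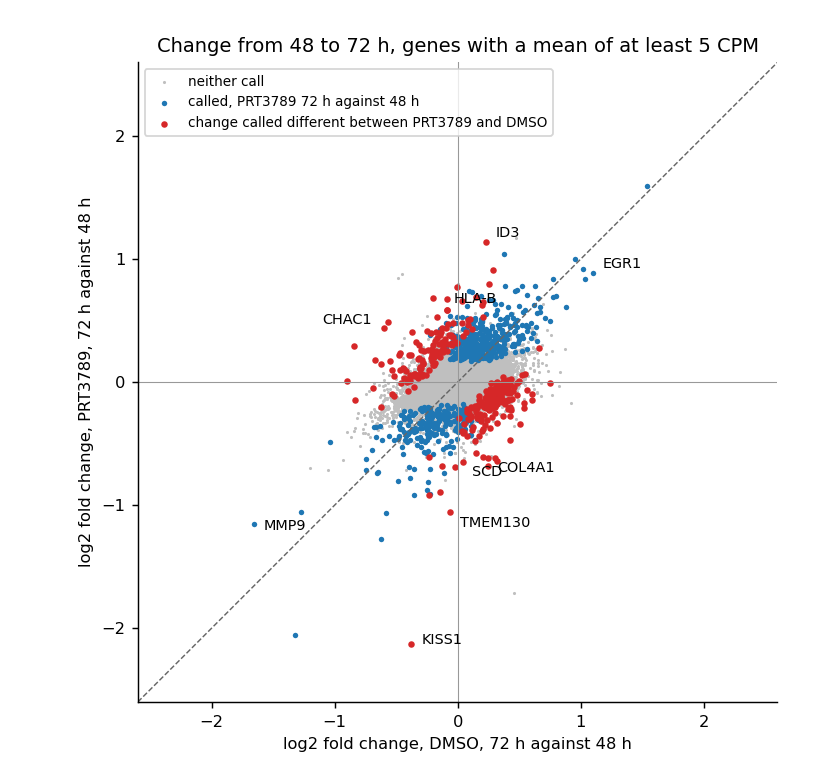
Log2 fold change from 48 to 72 h in DMSO (horizontal axis) and in PRT3789 (vertical axis) for 11053 genes with a mean of at least 5 CPM, with genes called in PRT3789 in blue, genes whose change was called different between the arms in red, and the line of equal change dashed; 1 gene, KRT5, lies outside the axes. EGR1 and MMP9 lie in the quadrants where both arms moved the same way, and ID3 and KISS1 lie away from the line.

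The targeted gene, its paralog and both readouts of the compound did not pass the test between 48 and 72 h. SMARCA2 mRNA was at 38.9, 34.8 and 36.8 CPM at 48 h and 34.1, 37.2 and 32.6 CPM at 72 h (log2 change -0.09 ± 0.07 SE, adjusted p = 0.53). It is not a check on the degrader, which acts on the protein. SMARCA4 was at 9.41 to 11 CPM at 48 h and 7.93 to 9.7 CPM at 72 h (adjusted p = 0.45). KRT80, a type II keratin, was at 15.8 to 18.6 CPM at 48 h and 16.2 to 22.4 CPM at 72 h, far below the 543 to 660 CPM of the DMSO libraries. PLAU, the urokinase plasminogen activator, was at 28.6, 21.9 and 58.1 CPM at 48 h and 22.1, 21.2 and 19.6 CPM at 72 h, so the 2 groups differed mainly by replicate 3 of 48 h, the library that also held surfactant and HLA class II transcripts. None of the 26 tested SWI/SNF subunits was called in PRT3789, where 5.11% of all genes were called in either direction. In DMSO 5 were higher (19.2%, against 10.0% of all genes) and 2 lower (7.69%, against 8.83%). The difference between the arms was called for none, where 1.83% of all genes were called.

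Immediate early genes were the group with the largest share of calls. These genes encode transcription factors such as the AP-1 subunits and the EGR and KLF zinc finger proteins, and they are switched on within minutes of a growth factor or stress signal without new protein synthesis. Of 36 tested members of the list of AP-1, immediate early and heat shock genes, 15 were higher at 72 h and none lower (41.7%, against 3.17% of all genes), with a median log2 change of 0.26. In DMSO 20 of the same 36 were higher (55.6%, against 10.0% of all genes) and 1 lower (2.78%, against 8.83%). The DMSO median was 0.31. The count in PRT3789 was 10 to 19 over all alternatives.

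EGR1, the zinc finger factor induced through serum response factor, was at 157, 155 and 195 CPM at 48 h and 307, 326 and 303 CPM at 72 h in PRT3789. All 3 libraries of 72 h lay above all 3 of 48 h, a 1.85-fold rise (adjusted p = 1.6e-05), and DMSO went from 225, 245 and 196 CPM to 471, 495 and 481 CPM. JUN, the AP-1 subunit, rose from 125, 137 and 141 CPM to 206, 209 and 201 CPM (log2 change 0.61 ± 0.07, adjusted p = 5.9e-05). FOSB, another AP-1 subunit, had the largest rise among the named genes at 3.02-fold. Its 3 values at 48 h were 10.3, 13 and 23.3 CPM and those at 72 h 46.8, 61.7 and 33.3 CPM, so the groups did not overlap but spread widely, and the adjusted p of 0.035 was lost in 9 of 22 alternatives. FOS itself went from 106, 137 and 154 CPM to 236, 238 and 206 CPM, a 1.72-fold rise (adjusted p = 0.0033). KLF2, a zinc finger factor known from quiescent endothelium and lymphocytes, rose 2.69-fold from 1.7, 1.74 and 2.74 CPM to 5.28, 5.58 and 5.87 CPM. NR4A1, an orphan nuclear receptor, rose 1.78-fold, KLF6 1.53-fold and FOSL2 1.51-fold. The smallest called rises in the list were those of HSPH1 (log2 change 0.24), a heat shock protein, IER2 (0.27), MYC (0.28) and SRF (0.30), the serum response factor itself.

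The change in PRT3789 was called different from that in DMSO for 2 of the 36, MYC and IER5, both smaller in PRT3789. They were 5.56% of the list, against 1.05% of all genes with a lower difference. MYC went from 45.7, 46.9 and 50.3 CPM to 55.8, 55.1 and 62.3 CPM in PRT3789 and from 61.5, 66.6 and 58 CPM to 99.3, 102 and 97.1 CPM in DMSO, a difference of -0.38 ± 0.09 in log2 change (adjusted p = 0.044). For FOSB the difference was 0.06 ± 0.47 and for JUN -0.06 ± 0.10, neither of which passed the test.

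Promoter sequences of this list are shown because its members moved together. The RefSeq table of build GRCh38.p14 (250 bases before to 50 after each start) held 30 of the 36 tested members and 14 of the 15 that rose. The AP-1 site, TGANTCA read on both strands, was found in 1 of those 14 (7.14%), in 7.76% of all 27305 promoters and in 4.69% of those of 12400 tested genes. The CArG box, the site of serum response factor, was added to the search after the values were seen. It was found in 2 of the 14 (14.3%), in 1.29% of all promoters and in 1% of those of tested genes. Both of the 2, the promoters of EGR1 and SRF, held it 2 times. The cyclic AMP response element TGACGTCA, also added later, was in none of the 14, in 1.98% of all promoters and in 3.19% of those of tested genes. It was also in that of DUSP1, which belongs to the next group, whose share was not counted. A match is only a run of letters in this window. In the sequences below, written 5′ to 3′ along each gene's strand and ending before its start, capitals mark the CArG box for EGR1 (chr5:138465359-138465420, plus strand) and SRF (chr6:43171224-43171268, plus strand) and the response element for DUSP1 (chr5:172771298-172771335, minus strand).
EGR1: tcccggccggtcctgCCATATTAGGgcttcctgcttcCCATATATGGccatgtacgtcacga
SRF: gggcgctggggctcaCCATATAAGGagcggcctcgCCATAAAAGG
DUSP1: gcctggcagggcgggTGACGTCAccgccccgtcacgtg

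Some genes that report on or restrain MAP kinase signalling, and some ligands of the EGF receptor family, rose beside the immediate early genes. Of 31 tested members of the list of MAPK feedback genes and EGFR ligands, 9 were higher (29%) and 1 lower (3.23%) in PRT3789. Of all genes 3.17% were higher and 1.94% lower. The median log2 change of the list was 0.10. In DMSO 12 of the 31 were higher (38.7%, against 10.0% of all genes) and none lower (against 8.83%), with a median of 0.24. The count of higher genes was 7 to 10 over all alternatives. The dual-specificity phosphatases, which inactivate MAP kinases, held 5 of the 9. DUSP1 rose from 96.9, 108 and 125 CPM to 205, 192 and 192 CPM in PRT3789 (1.79-fold, adjusted p = 6.5e-05), and DMSO went from 226, 284 and 286 CPM to 479, 458 and 441 CPM. Every PRT3789 value of DUSP1 was below every DMSO value of 48 h, and the difference in log2 change was 0.07 ± 0.13, which did not pass the test (adjusted p = 0.83). DUSP6, a phosphatase specific for ERK, rose from 35.3, 41 and 50.1 CPM to 64.7, 75.6 and 62.7 CPM (1.61-fold). DUSP8 rose 1.9-fold, DUSP5 1.48-fold and DUSP4 1.44-fold. HBEGF, a ligand of the EGF receptor, rose from 20.4, 22.1 and 20.7 CPM to 33, 34 and 36.3 CPM (log2 change 0.71 ± 0.07, adjusted p = 6.2e-06), and NRG1, a ligand of ERBB3 and ERBB4, from 48.1, 47.4 and 44.7 CPM to 67.2, 72 and 65.6 CPM (0.55 ± 0.07). TRIB1, a pseudokinase scaffold for the COP1 ubiquitin ligase and no member of the list, rose 2-fold, from 4.21, 4.17 and 5.52 CPM to 9.14, 10.5 and 8.22 CPM. ETV1, an ETS factor, was the lower member, from 7.32 to 7.89 CPM at 48 h down to 4.21 to 5.35 CPM at 72 h (log2 change -0.62 ± 0.16, adjusted p = 0.032). ERRFI1, the EGFR inhibitor MIG6, was the only member whose change was called different from DMSO, by 0.34. This was 3.23% of the list, against 0.777% of all genes with a higher difference, and the call held in 6 of 21 alternatives.

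**Figure D2:**
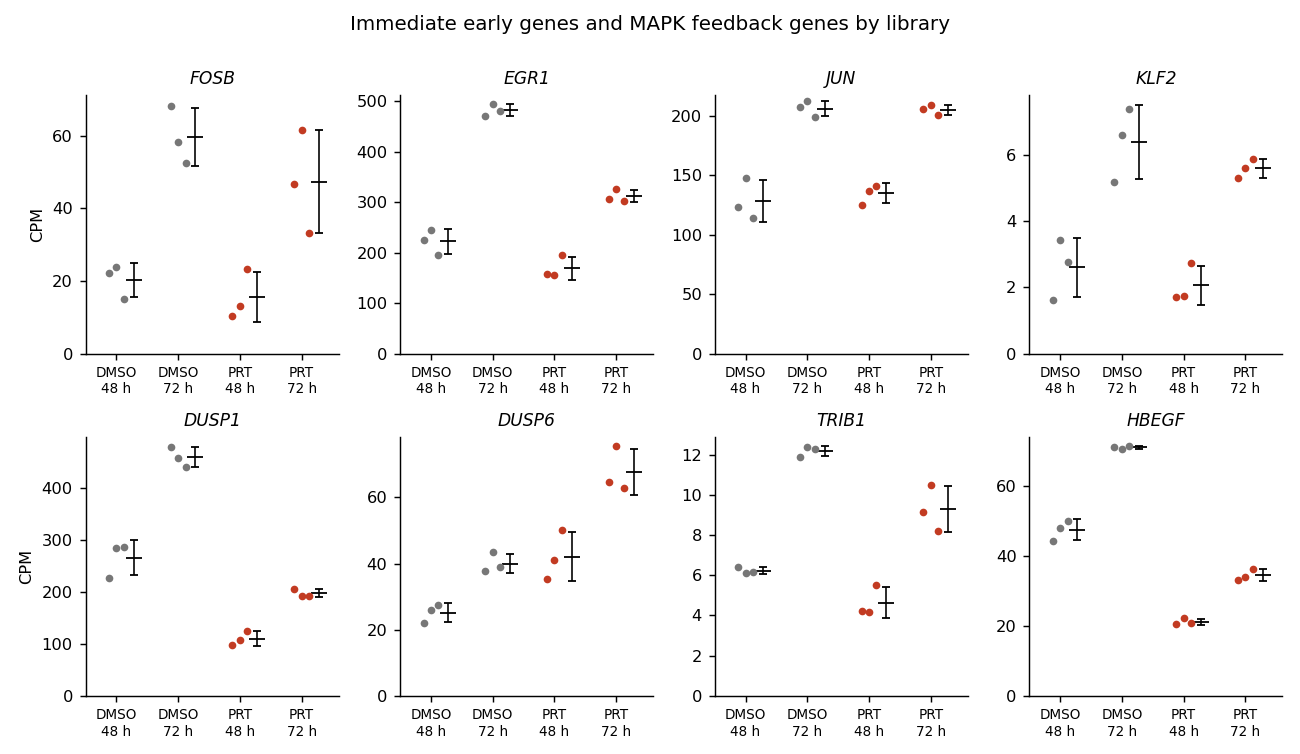
CPM of 4 immediate early genes (upper row) and of DUSP1, DUSP6, TRIB1 and HBEGF (lower row) in each library. DMSO is in grey and PRT3789 in red, at 48 and 72 h, with the mean and standard deviation of the 3 libraries in black. In all 8 genes the 3 PRT3789 libraries of 72 h lie above the 3 of 48 h, and the DMSO libraries do the same.

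Targets of YAP and TEAD, the transcriptional arm of the Hippo pathway, had 7 of 29 tested members higher in PRT3789 and 1, IGFBP3, lower. These were 24.1% and 3.45%, against 3.17% and 1.94% of all genes. The median log2 change was 0.15. CCN2, the connective tissue growth factor gene and a standard YAP readout, rose from 119, 129 and 139 CPM to 171, 173 and 165 CPM (1.32-fold, adjusted p = 0.0013). GADD45A, which had the smallest p of the 7, also belongs to the list of CDK inhibitors and p53 targets described below. In DMSO 18 of the 29 were higher (62.1%, against 10.0% of all genes) and none lower (against 8.83%), with a median of 0.29. The PRT3789 count is not stable: it was 2 with all 18 libraries, 15 with the 6 PRT3789 libraries alone, 3, 2 and 2 without replicates 1, 2 and 3 of 48 h, and 3, 2 and 4 without those of 72 h. AXL, a receptor tyrosine kinase, was called different between the arms by -0.85 ± 0.16 (adjusted p = 0.02). It was at 11.1, 12.6 and 13.4 CPM and then 10.8, 9 and 9.53 CPM in PRT3789, a change that did not pass the test (adjusted p = 0.14), and rose from 59.6, 47.2 and 42.7 CPM to 73.7, 69.3 and 71.5 CPM in DMSO.

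The lowest adjusted p of the interaction test belonged to ID3, one of the inhibitor of DNA binding proteins that hold basic helix-loop-helix factors off DNA and are direct targets of BMP signalling through SMAD1 and SMAD5. ID3 was at 60.6, 62.9 and 59.2 CPM at 48 h and 127, 141 and 133 CPM at 72 h in PRT3789, a 2.2-fold rise (log2 change 1.14 ± 0.08, adjusted p = 2.7e-07). In DMSO it was at 52.4, 69.9 and 67.2 CPM and then 74.9, 71.3 and 79 CPM, a log2 rise of 0.23 ± 0.08. The arms overlapped at 48 h and were apart at 72 h, and the difference in change was 0.90 ± 0.11 (adjusted p = 0.0028). ID2 rose from 54.6, 52 and 57.5 CPM to 68.2, 76.7 and 71.4 CPM in PRT3789 and fell by 0.21 on the log2 scale in DMSO, a difference of 0.61 ± 0.10 (adjusted p = 0.0081). ID4 rose 1.59-fold in PRT3789, and its difference from DMSO of 0.38 ± 0.10 did not pass (adjusted p = 0.057). BAMBI, a decoy receptor of the family, rose 1.47-fold at 1.98 to 3.38 CPM, and FSTL3, a secreted activin antagonist, rose 1.42-fold.

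The list of TGF-beta and BMP targets did not move one way. Of its 33 tested members, 5 were higher (15.2%, against 3.17% of all genes), the 3 ID genes with BAMBI and FSTL3. Lower calls numbered 4 (12.1%, against 1.94%). In DMSO 15.2% were higher and 6.06% lower, against 10.0% and 8.83% of all genes. The median log2 change in PRT3789 was 0.07. BMP4, a ligand, fell from 67.6, 66.7 and 68.2 CPM to 54.2, 50.8 and 51.8 CPM (log2 change -0.37 ± 0.06, adjusted p = 0.00069), and DMSO was at 162 to 175 CPM and then 177 to 194 CPM. SKIL, a SMAD corepressor, fell from 53.2 to 56.6 CPM down to 41.4 to 42.9 CPM, LTBP2, a latent TGF-beta binding protein, fell 1.49-fold, and PMEPA1 fell by 0.25 on the log2 scale. The difference from DMSO was called for 6 members, higher for ID2, ID3 and FSTL3 and lower for BMP4, SKIL and TGFBR3. Each direction was 9.09% of the list, against 0.777% of all genes higher and 1.05% lower. The count of higher members was 8 by DESeq2 and 9 without replicate 1 of DMSO at 48 h, and with all 18 libraries the counts were 3 and 1.

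Among the other large rises were genes low in DMSO at all times. MDGA1, a membrane glycoprotein known from neurons, was at 5.8, 3.64 and 5.35 CPM and then 12.1, 10.9 and 11.8 CPM in PRT3789 (2.35-fold, adjusted p = 4.3e-05), and at 0.624 to 1.42 CPM in the 9 DMSO libraries. CLDN16, a tight junction claudin of the renal tubule, was at 3.57, 4.05 and 3.97 CPM and then 8.14, 10.3 and 8.74 CPM (2.34-fold, adjusted p = 0.00047), and at 0.283 to 0.919 CPM in DMSO. SH2D5, an adaptor protein, went from 5.42 to 6.4 CPM up to 11.7 to 12.1 CPM (2.06-fold). The interaction test did not pass for MDGA1 (difference from DMSO 0.983 ± 0.265, adjusted p = 0.062) or SH2D5 (0.665 ± 0.191, adjusted p = 0.077). For CLDN16 it passed (1.496 ± 0.367, adjusted p = 0.044), but this call held in only 6 of 20 alternatives. These 3 genes had means of 0.85, 0.873 and 2.49 CPM in PRT3789 at 6 h, so each stood higher at 48 than at 6 h and higher again at 72 h. PTGS2, the inducible cyclooxygenase, rose from 23.7, 24.7 and 25.2 CPM to 46.4, 52 and 40.3 CPM (1.89-fold, adjusted p = 1.2e-05), against a difference from DMSO of 0.63 ± 0.14 (adjusted p = 0.033). IL31RA, a cytokine receptor of the gp130 family, went the opposite way over the whole course. It had a mean of 34.3 CPM at 6 h in PRT3789, was at 10, 11.1 and 11 CPM at 48 h, and rose to 19.6, 18.5 and 17.9 CPM at 72 h.

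Of the 12 largest falls chosen by the naming rule, 5 were of genes for matrix-degrading enzymes, an inhibitor of them and matrix proteins (MMP9, MMP2, TIMP1, SPARC and NID1), which epithelial tumour cells make more of when they take on mesenchymal features. MMP9, gelatinase B, had 12.6, 11.9 and 11.8 CPM at 48 h and 5.86, 5.14 and 5.25 CPM at 72 h (2.23-fold lower, adjusted p = 4.9e-06). It fell 3.14-fold in DMSO as well, from 14.2 to 17.3 CPM down to 4.92 to 5.42 CPM, and the difference of 0.50 ± 0.15 did not pass (adjusted p = 0.087). MMP2, gelatinase A, fell from 51, 45.3 and 44.8 CPM to 29.4, 30.5 and 26.3 CPM (1.63-fold, adjusted p = 0.00035), where DMSO was at 148 to 201 CPM over both times. TIMP1, an inhibitor of both, fell 1.61-fold from 6.4, 7.11 and 6.87 CPM to 4.17, 4.09 and 4.35 CPM. SPARC, a collagen-binding glycoprotein, fell from 50.3, 45.3 and 43.8 CPM to 30.5, 30 and 26.1 CPM (log2 change -0.69 ± 0.07, adjusted p = 2.1e-05), while DMSO was at 279 to 316 CPM and then 262 to 285 CPM. The difference for SPARC was -0.56 ± 0.10 (adjusted p = 0.013). IGFBP5, a secreted IGF-binding protein, fell 1.87-fold from 23, 19.7 and 19.3 CPM to 12.9, 10 and 10.2 CPM.

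Of 37 tested mesenchymal genes, 7 were lower (18.9%, against 1.94% of all genes), MMP9, MMP2, TIMP1 and SPARC with S100A4, TAGLN and LOXL2. The 3 higher members were CALD1, TWIST1 and MYL9 (8.11%, against 3.17%). The median log2 change was 0.06, so the list as a whole did not fall. In DMSO 13.5% were higher and 8.11% lower, against 10.0% and 8.83% of all genes. The count of lower members in PRT3789 was 5 to 10 over all alternatives. TAGLN, the smooth muscle actin-binding protein transgelin, fell from 24.1, 19 and 20.4 CPM to 13.1, 16 and 13.5 CPM in PRT3789 and was at 80.1 to 104 CPM in DMSO, a difference of -0.72 ± 0.13 (adjusted p = 0.013). LOXL2, a collagen crosslinking oxidase, fell by 0.37 in PRT3789 and rose by 0.26 in DMSO. TWIST1, a factor that drives epithelial-mesenchymal transition, rose from 16.9, 18.8 and 18.7 CPM to 24.9, 23.1 and 26.8 CPM (1.38-fold, adjusted p = 0.0065), and CALD1, the actin regulator caldesmon, rose 1.39-fold.

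Basement membrane genes made up the called falls among matrix genes. Of 38 tested genes for collagens and matrix, 6 were lower (15.8%, against 1.94% of all genes) and 2 higher (5.26%, against 3.17%). The median log2 change was 0.02. In DMSO 10.5% were higher and 2.63% lower, against 10.0% and 8.83% of all genes. The lower ones in PRT3789 included the type IV collagen chains COL4A1 and COL4A2, nidogen NID1 and the laminin chains LAMA3 and LAMB1. With all 18 libraries 3 of the list were called lower in PRT3789. COL4A1 was at 31.4, 32.3 and 30.7 CPM and then 20.7, 21.7 and 19.2 CPM (log2 change -0.61 ± 0.12, adjusted p = 0.0067), and COL4A2 at 80.6, 77 and 73.6 CPM and then 52.5, 52.7 and 46.4 CPM (-0.61 ± 0.10, adjusted p = 0.0029). In DMSO both were higher and not called, COL4A1 at 76.8 to 112 CPM and then 105 to 113 CPM. The differences were -0.86 ± 0.15 for COL4A1 and -0.81 ± 0.14 for COL4A2. NID1, which links collagen IV to laminin, fell 1.61-fold, and LAMB1 fell from 189 to 194 CPM down to 153 to 169 CPM. COL6A2, a chain of collagen VI, moved the other way, from 36.3 to 41.5 CPM up to 52.7 to 54.5 CPM. COL4A1 and COL4A2 are transcribed in opposite directions from a shared promoter. Their RefSeq starts in GRCh38.p14 leave 126 bases between them (chr13:110307158-110307283, plus strand, COL4A1 to the left), shown because both genes changed by -0.61 on the log2 scale.
COL4A1-COL4A2: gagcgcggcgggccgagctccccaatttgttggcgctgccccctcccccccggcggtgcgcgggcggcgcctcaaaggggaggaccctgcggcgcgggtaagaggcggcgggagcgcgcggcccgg

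**Figure D3:**
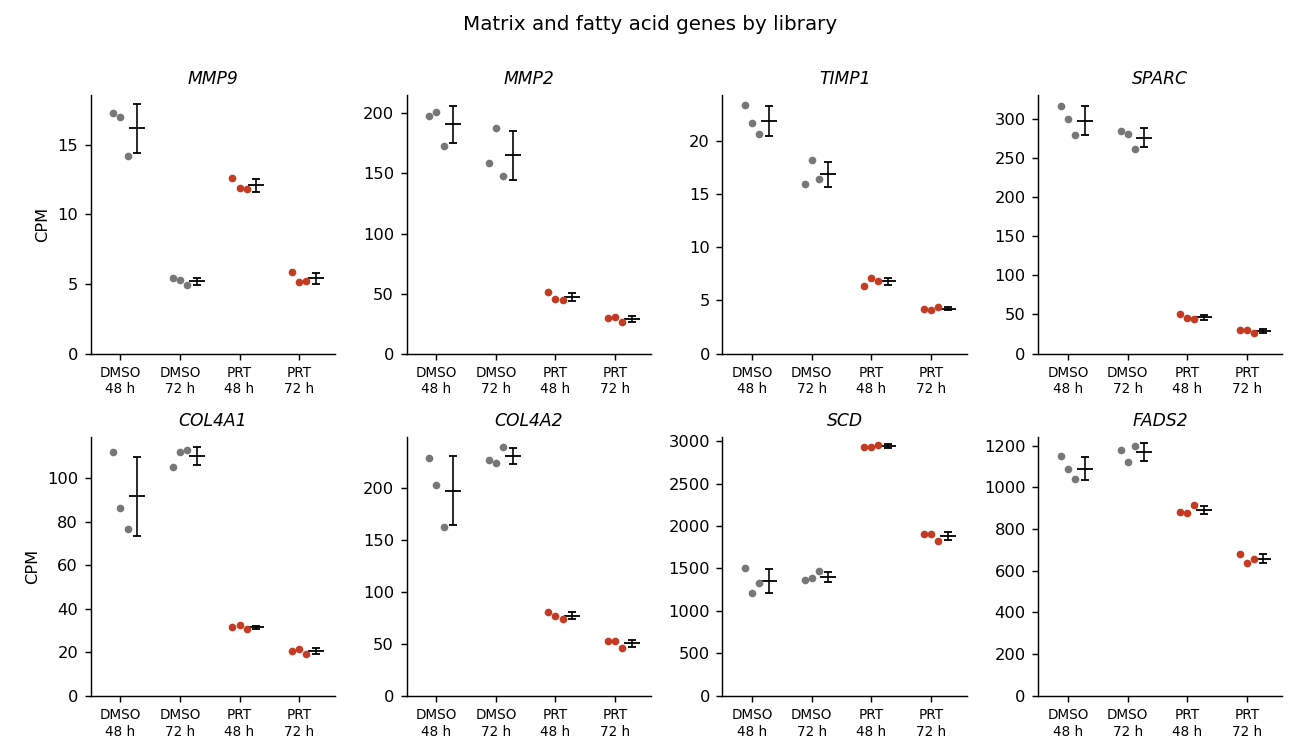
CPM of 6 matrix genes and of the desaturase genes SCD and FADS2 in each library of DMSO (grey) and PRT3789 (red) at 48 and 72 h, with the mean and standard deviation of the 3 libraries in black. In all 8 genes the PRT3789 libraries of 72 h lie below those of 48 h, and MMP9 and TIMP1 also fell in DMSO.

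Enzymes that lengthen and desaturate fatty acids fell in PRT3789 and did not pass the test in DMSO. Of 38 tested genes of fatty acid and lipid metabolism, 5 were lower (13.2%, against 1.94% of all genes) and 1 higher (2.63%, against 3.17%). In DMSO 10.5% were higher and none lower, against 10.0% and 8.83% of all genes. The median log2 change in PRT3789 was -0.05, and the count of lower genes was 4 to 7 over all alternatives. SCD, the stearoyl-CoA desaturase that makes monounsaturated fatty acids, was at 2930, 2930 and 2960 CPM at 48 h and 1910, 1900 and 1820 CPM at 72 h (1.56-fold lower, adjusted p = 1.2e-05). DMSO was at 1500, 1210 and 1330 CPM and then 1360, 1390 and 1470 CPM, so SCD stood above DMSO at both times and came closer to it at 72 h. FADS2, a polyunsaturated fatty acid desaturase, fell from 883, 879 and 915 CPM to 678, 636 and 657 CPM, and FADS1, its neighbour in the same pathway, from 594, 588 and 599 CPM to 486, 481 and 480 CPM. ELOVL6, a fatty acid elongase, fell 1.32-fold and ACSS2, an acetyl-CoA synthetase, 1.23-fold. The difference from DMSO was called lower for 6 members, these 5 and ACACA, the acetyl-CoA carboxylase, which rose by 0.39 in DMSO and was at 128 to 134 CPM and then 123 to 129 CPM in PRT3789. It was -0.69 ± 0.09 for SCD (adjusted p = 0.0044) and -0.52 ± 0.08 for FADS2 (adjusted p = 0.0063). ACADVL, a mitochondrial enzyme of fatty acid oxidation, was the higher member, by 0.20. In cholesterol synthesis 2 of 29 tested genes, FDPS and EBP, were lower (6.9%, against 1.94% of all genes) and none higher. In DMSO 6 were higher (20.7%, against 10.0% of all genes) and 4 lower (13.8%, against 8.83%). The 2 became 0 with all 18 libraries, 1 with the replicate block and 5 with the 6 PRT3789 libraries alone.

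Interferon-stimulated genes had more lower than higher calls, and most of them did not pass the test. Of 55 tested interferon-stimulated genes, 10 were lower (18.2%, against 1.94% of all genes) and 2 higher (3.64%, against 3.17%). The median log2 change was -0.18. In DMSO 8 were lower (14.5%, against 8.83% of all genes) and 6 higher (10.9%, against 10.0%), with a median of -0.09. IFITM2, a membrane protein that restricts viral entry, fell from 51.6, 54.8 and 52.2 CPM to 37.4, 37.8 and 38.9 CPM (log2 change -0.47 ± 0.06, adjusted p = 5.6e-05). IFIT1, which binds foreign RNA caps, fell from 6.4, 6.86 and 7.01 CPM to 3.9, 3.69 and 4.8 CPM, and IFIT2 from 5.34, 6.24 and 5.68 CPM to 3.55, 3.21 and 3.52 CPM. IFITM1, OASL and GBP2 had larger falls at low levels, GBP2 from 2.11 to 3.61 CPM down to 1.12 to 1.76 CPM, far below the 45.2 to 59.9 CPM of DMSO. The higher members were ISG20 (log2 change 0.73) and GBP3 (0.28). The count of lower genes was 6, 6 and 4 without replicates 1, 2 and 3 of 48 h, 4 without replicate 2 of 72 h and 5 with all 18 libraries. The difference from DMSO was called lower for 2 of the 55 (3.64%, against 1.05% of all genes) and higher for none. The ubiquitin ligase gene TRIM25 was 1 of the 2 (-0.30 ± 0.07, adjusted p = 0.042).

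Of 33 tested antigen presentation genes, 7 were higher in PRT3789 (21.2%, against 3.17% of all genes) and none lower. The median log2 change was 0.10. In DMSO 4 were higher (12.1%, against 10.0% of all genes) and 6 lower (18.2%, against 8.83%), with a median of -0.11. HLA-B was at 300, 307 and 325 CPM and then 473, 435 and 486 CPM (1.5-fold higher, adjusted p = 7.8e-05), and at 211 to 264 CPM and then 212 to 242 CPM in DMSO. HLA-C rose from 1250, 1330 and 1300 CPM to 1540, 1470 and 1590 CPM. The peptide transporter genes TAP1 and TAP2 rose by 0.23 and 0.33, and rose by 0.20 and 0.21 in DMSO. The difference from DMSO was called higher for 6 members (18.2%, against 0.777% of all genes) and lower for none. Of the 6, 5 differed by 0.36 to 1.05: HLA-B, HLA-C, HLA-E, HLA-F and HLA-DRB1. HLA genes share long stretches of sequence, so how the counting divided reads among them is uncertain. HLA-DRB1, a class II gene, was at 15.8 to 17.2 CPM and then 21 to 25.1 CPM, and replicate 3 of 48 h, which had the most HLA-DRA, had the lowest HLA-DRB1. The count of 7 was 4, 3 and 4 without replicates 1, 2 and 3 of 48 h, 3 and 4 without replicates 1 and 3 of 72 h, 3 with all 18 libraries and 11 with the 6 PRT3789 libraries alone.

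Genes of the unfolded protein and integrated stress responses slow translation and raise amino acid supply under stress. Of 46 tested members, 6 were higher (13%, against 3.17% of all genes) and 1 lower (2.17%, against 1.94%). In DMSO 15.2% were higher and 13% lower, against 10.0% and 8.83% of all genes. The median log2 change in PRT3789 was 0.12. PPP1R15A, the phosphatase subunit GADD34 that ends the translation block, rose from 30.6, 31.7 and 31.7 CPM to 45.7, 50 and 48.4 CPM, by 0.62 on the log2 scale and by 0.50 in DMSO. CHAC1, a glutathione-degrading enzyme induced by ATF4, rose from 20.8, 21.6 and 23.8 CPM to 30.9, 26.8 and 32.1 CPM in PRT3789 and fell from 14.1, 19.8 and 17.8 CPM to 10.6, 11.7 and 12.3 CPM in DMSO. The difference was 1.04 ± 0.15 (adjusted p = 0.0063). ASNS and PSAT1, enzymes of asparagine and serine synthesis, fell in DMSO by 0.47 and 0.31 and were at 78.5 to 80.7 and then 92 to 96.8 CPM, and 109 to 117 and then 136 to 143 CPM, in PRT3789, changes that did not pass the test. Their differences of 0.71 and 0.61 were called, as were those of CARS1 and STC2, and that of EDEM1 was called lower. With CHAC1, 5 members had a higher difference (10.9%, against 0.777% of all genes) and 1 a lower one (2.17%, against 1.05%). The count of 6 was 12 without replicate 1 of DMSO at 48 h, 10 without replicate 3 of it, 2 without each of replicates 1 and 2 of PRT3789 at 48 h and replicates 1 and 3 at 72 h, and 1 with all 18 libraries.

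Of 35 tested CDK inhibitors and p53 targets, 5 were higher (14.3%, against 3.17% of all genes) and none lower. In DMSO 11.4% were higher and 17.1% lower, against 10.0% and 8.83% of all genes. The median log2 change in PRT3789 was -0.01, which has the opposite sign to the calls. GADD45A, a growth arrest and DNA damage gene, rose from 113, 118 and 117 CPM to 182, 181 and 200 CPM (1.62-fold, adjusted p = 1.5e-06), with a difference from DMSO of 0.54 ± 0.08 (adjusted p = 0.0063). CDKN1A, which encodes p21, rose from 16.1, 16.2 and 16.4 CPM to 21.3, 21.6 and 20.5 CPM, and remained below its 42.6 to 47.6 CPM in DMSO. CDKN2B, which encodes p15, rose from 253 to 265 CPM up to 328 to 338 CPM, above the 113 to 130 CPM of DMSO. The other 2 were AEN and SESN2. The count was 8 by DESeq2, 3 without any single PRT3789 library, 9 without replicate 1 of DMSO at 48 h and 3 with all 18 libraries. Of 27 tested apoptosis regulators, 2 were lower (7.41%, against 1.94% of all genes) and 1 higher (3.7%, against 3.17%). In DMSO 4 were higher (14.8%, against 10.0% of all genes) and 2 lower (7.41%, against 8.83%). The median log2 change in PRT3789 was 0.02. Its 2 lower members were the BH3-only genes BMF and BCL2L11, which encode antagonists of BCL2. BMF fell from 5.27, 5.12 and 6.58 CPM to 2.9, 3.21 and 2.87 CPM (1.89-fold). BCL2L11 fell from 17.2, 16.9 and 19.1 CPM to 13.8, 13.9 and 11.9 CPM (1.34-fold). TNFRSF10B, the death receptor DR5, was higher by 0.24.

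The share of proliferation genes called in PRT3789 was near or below that of all tested genes, except for the lower G2/M genes. Of 50 tested S phase and DNA replication genes 1 was lower (2%, against 1.94% of all genes) and none higher, where in DMSO 21 were higher (42%, against 10.0% of all genes) and none lower. The median log2 change was -0.04 in PRT3789 and 0.15 in DMSO. The difference was called lower for 5 of the 50 (10%, against 1.05% of all genes). Of 64 tested G2/M and mitosis genes, 3 were lower (NCAPG, PTTG1 and KIF20A, 4.69%) and ANLN was higher (1.56%). In DMSO 19 were higher (29.7%, against 10.0% of all genes) and 1 lower (1.56%, against 8.83%). The difference was called lower for 4 of the 64 (6.25%, against 1.05% of all genes). The median log2 change of these 64 was -0.10 in PRT3789, with 8 of them above 0, and 0.07 in DMSO, with 46 above 0. The 3 lower calls became 0 with all 18 libraries and without replicate 1 or 3 of PRT3789 at 48 h or at 72 h, 1 without replicate 2 of 48 h, 5 and 6 without replicates 1 and 3 of DMSO at 48 h, and 8 with the 6 PRT3789 libraries alone. None of 33 tested genes of homologous recombination and the Fanconi pathway was called in PRT3789, where 5.11% of all genes were called either way. In DMSO 6 of them were higher (18.2%, against 10.0% of all genes). The difference was called lower for BRCA2, FANCD2, FANCA and FANCI, from -0.63 to -0.32 (12.1%, against 1.05% of all genes). BRCA2 was at 15.9, 14.6 and 16.5 CPM and then 13.2, 15.2 and 12.4 CPM in PRT3789, and at 12.8 to 13 CPM and then 16.1 to 20.5 CPM in DMSO. The DMSO libraries of 48 h also had the wider spread and the higher share of ribosomal protein counts given above, and the part of this in the differences was not tested.

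Ribosomal protein genes and nuclear genes of oxidative phosphorylation had negative medians in both arms, and far more of them passed the test in DMSO. In PRT3789 5 of 78 ribosomal protein genes (6.41%) and 3 of 70 oxidative phosphorylation genes (4.29%) were lower, against 1.94% of all genes. Their medians were -0.21 and -0.11. In DMSO 75 and 54 were lower (96.2% and 77.1%, against 8.83% of all genes), with medians of -0.45 and -0.37. No ribosomal protein gene and 1 oxidative phosphorylation gene had a called difference between the arms. That 1 was a higher difference (1.43% of its list, against 0.777% of all genes). The PRT3789 counts differ with the libraries in the fit: with the 6 PRT3789 libraries alone they were 67 and 24, with all 18 libraries 0 and 0, and without replicate 1 of DMSO at 48 h 42 and 16. Without single PRT3789 libraries they were 1 to 2 and 0 to 1. In DMSO the fit with all 18 libraries called 25 genes lower in all, so most of the 75 and 54 calls are lost there too. Of 15 mitochondrially encoded genes 3 were lower in each arm (20%). Of all genes 1.94% were lower in PRT3789 and 8.83% in DMSO. The medians of the 15 were -0.30 in PRT3789, where none was above 0, and -0.16 in DMSO. The 3 in PRT3789 became 13 with its 6 libraries alone, 14 with no filter, 1 with the length trend removed and 0 with all 18 libraries. They were 1, 0 and 0 without replicates 1, 2 and 3 of PRT3789 at 48 h, 0 without any one library of 72 h, and 7, 1 and 6 without replicates 1, 2 and 3 of DMSO at 48 h.

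Lung and epithelial genes gave small counts of calls. ABCA3, the lipid transporter of alveolar type II cells, rose from 28.7, 26.7 and 26.5 CPM to 44.3, 40.3 and 40.5 CPM (1.53-fold, adjusted p = 4.1e-05), LAMP3, a lamellar body protein of the same cells, from 4.1, 3.8 and 4.13 CPM to 6.45, 5.85 and 6.22 CPM, and the mucin MUC1 from 298 to 320 CPM up to 397 to 423 CPM. These were 3 of 20 tested genes of the lung and endoderm lineage (15%, against 3.17% of all genes), with none lower. The list's median was -0.37, of the opposite sign, and its weakly expressed members include the surfactant genes that stood out in replicate 3 of 48 h. Of 49 tested epithelial junction and keratin genes, 5 were lower (ESRP1, ELF3, KRT18, CLDN4 and KRT8) and CLDN16 and CLDN1 were higher. The lower calls were 10.2% and the higher calls 4.08%, against 1.94% and 3.17% of all genes. In DMSO 10.2% were lower and 12.2% higher, against 8.83% and 10.0% of all genes. In PRT3789 KRT8 and KRT18, the paired keratins of simple epithelia, fell 1.16-fold and 1.19-fold. The 5 became 1, 1 and 1 without replicates 1, 2 and 3 of 48 h, 2, 2 and 1 without those of 72 h, and 1 with all 18 libraries.

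**Figure D4:**
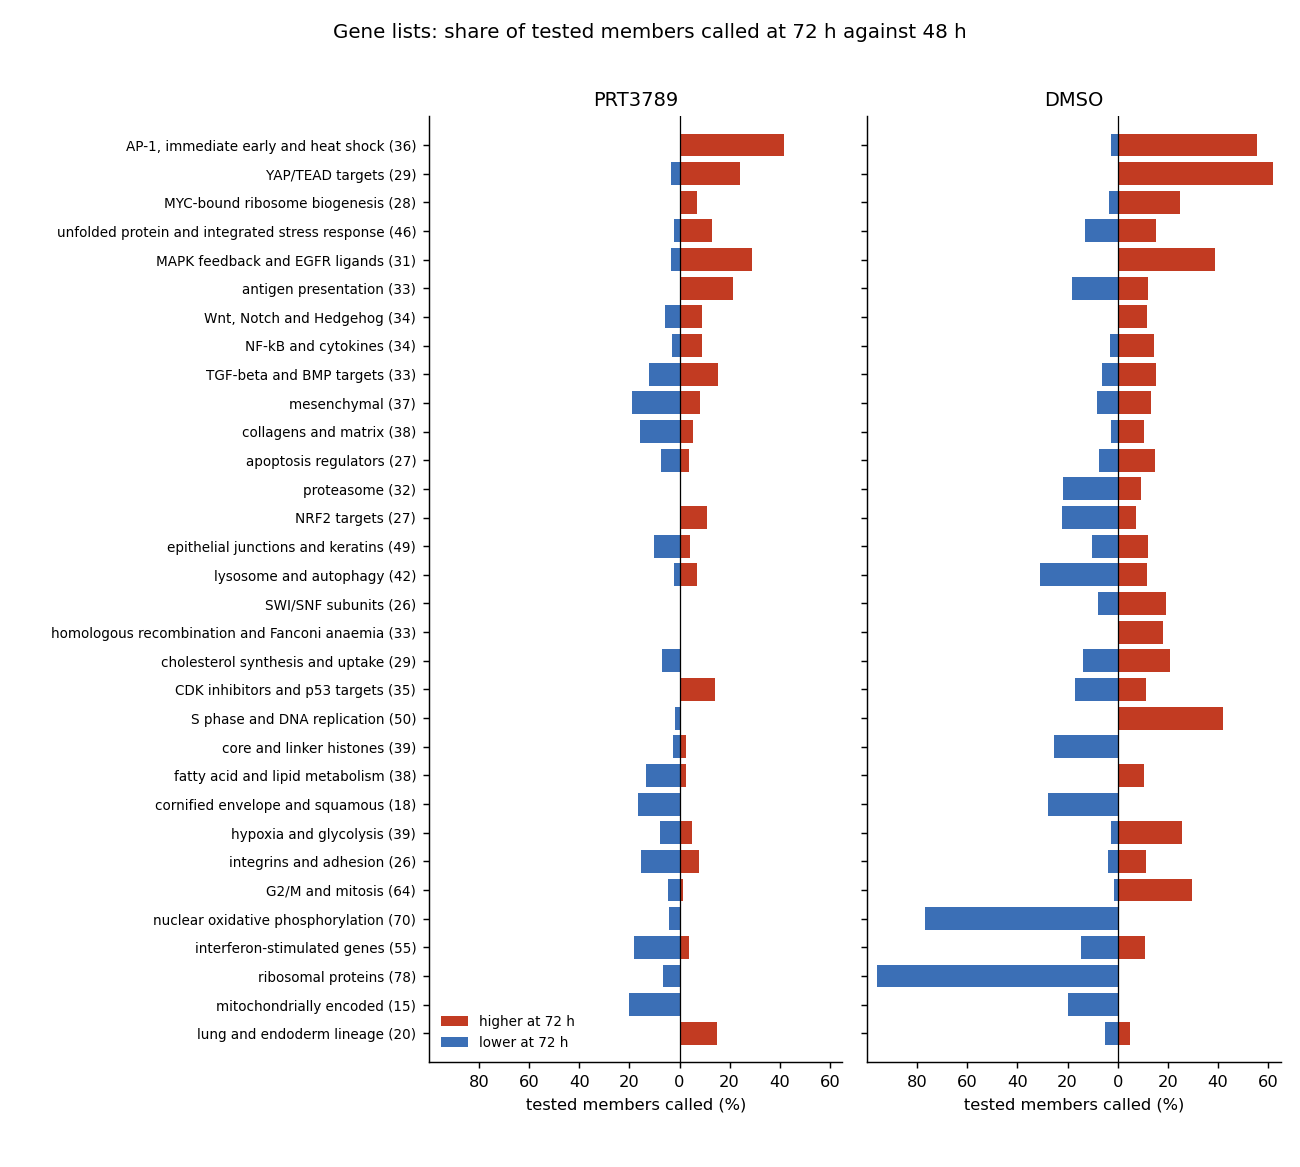
Share of the tested members of 32 gene lists called higher (red, to the right) or lower (blue, to the left) at 72 h than at 48 h in PRT3789 and in DMSO, with the number of tested members in brackets and the lists in order of their median log2 change in PRT3789. The immediate early list has the largest share of higher calls in PRT3789 at 41.7%, and the ribosomal protein and oxidative phosphorylation lists, mostly called lower in DMSO, have few calls in PRT3789.

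The genes furthest from DMSO in their change over time included several with no place in these lists. KISS1, which encodes the metastasis suppressor kisspeptin, was at 2.48, 1.57 and 1.69 CPM at 48 h and 0.241, 0.541 and 0.518 CPM at 72 h in PRT3789 (4.38-fold lower, adjusted p = 5.9e-05), and at 13.9, 16.4 and 14.2 CPM and then 12.8, 11.3 and 10.4 CPM in DMSO. Its mean in PRT3789 at 6 h was 48.5 CPM, so its level was lower at each later time. The difference was -1.75 ± 0.30 (adjusted p = 0.012). TMEM130, a membrane protein, was at 4.88, 4.71 and 4.59 CPM and then 2.69, 1.83 and 2.28 CPM in PRT3789 and at 31.1 to 34.4 CPM in all 6 DMSO libraries of 48 and 72 h (adjusted p of the difference 0.0063). The oxytocin receptor gene OXTR was at 5.25 to 5.79 CPM and then 2.83 to 5.11 CPM in PRT3789, which did not pass the test, and rose from 40.3 to 47.8 CPM up to 56.8 to 61.9 CPM in DMSO. PTGFRN, an inhibitor of prostaglandin receptor binding, fell 1.53-fold in PRT3789, with a difference of -0.93 that was called in 6 of 20 alternatives. The 2 rows of PLCXD1, a gene of the pseudoautosomal region counted once per copy, fell by 0.64 and 0.68, and their reads cannot be assigned to one copy. MDFI, an inhibitor of MyoD family factors, rose from 2.73 to 3.04 CPM up to 4.23 to 4.77 CPM, with a difference of 0.88. For BCAR4, C4orf48 and the histone gene H2BC8 the change within PRT3789 did not pass the test and DMSO fell by 0.84, 0.90 and 0.68. Their differences were called in 8 of 20, 12 of 21 and 4 of 20 alternatives.

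**Figure D5:**
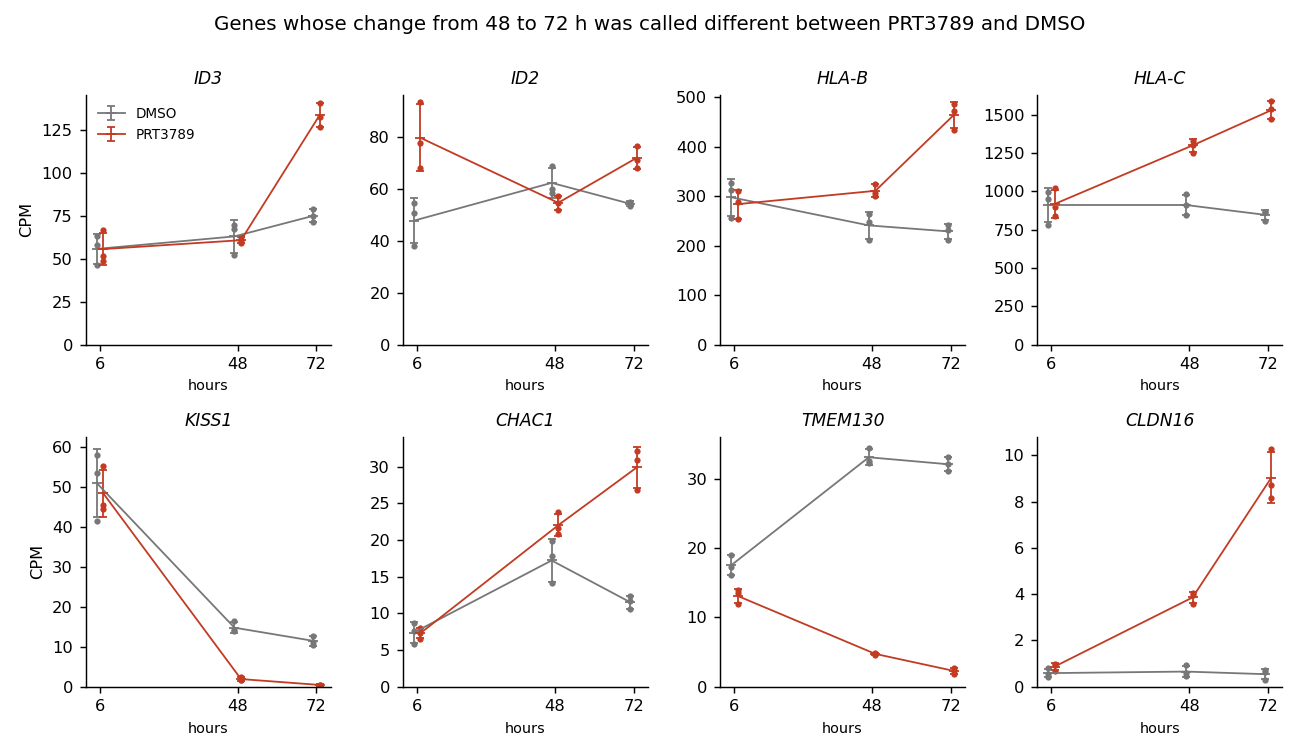
CPM of 8 genes at 6, 48 and 72 h in DMSO (grey) and PRT3789 (red), with each library as a point, the lines through the means of 3 libraries and bars of 1 standard deviation. ID3 separates from DMSO between 48 and 72 h, while KISS1, TMEM130 and CLDN16 were already apart at 48 h, and their fold difference from DMSO was larger at 72 h.

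Among other large changes in PRT3789, some were also called in DMSO. MT2A, a metallothionein, fell from 61.3, 62.7 and 59.5 CPM to 39.8, 33.7 and 37.2 CPM and by 0.65 in DMSO. SERPINA1, the antitrypsin gene, fell from 14.7, 19.5 and 12.4 CPM to 9.14, 9.84 and 8.74 CPM and by 0.65 in DMSO, and S100A13 fell 1.64-fold and by 0.75 in DMSO. MAP2K6, the kinase that activates p38, fell from 6.4, 6.74 and 6.38 CPM to 3.72, 3.32 and 4.04 CPM (1.76-fold, adjusted p = 0.00053), where DMSO was at 9.7 to 12.1 CPM and then 8.62 to 9.71 CPM. Of 39 tested hypoxia and glycolysis genes, ADM and HK2 were higher (5.13%, against 3.17% of all genes). MXI1, GAPDH and PDK1 were lower (7.69%, against 1.94%). The median log2 change was -0.05. In DMSO 10 were higher (25.6%, against 10.0% of all genes) and 1 lower (2.56%, against 8.83%). The 3 lower calls became 0 without any one PRT3789 library, 6 and 5 without replicates 1 and 3 of DMSO at 48 h, 1 without replicate 2 of DMSO at 72 h, 1 with all 18 libraries and 6 with the 6 PRT3789 libraries alone. ADM, the vasodilator peptide adrenomedullin, rose from 129 to 132 CPM up to 196 to 215 CPM (1.57-fold, adjusted p = 4.9e-06), with a difference from DMSO of 0.44 ± 0.09. HMOX1, the heme oxygenase and a target of NRF2, rose from 12.9, 14.8 and 13.6 CPM to 19.1, 20.7 and 19.4 CPM (1.44-fold), with a difference of 0.45 ± 0.12 that did not pass (adjusted p = 0.065).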

How the data were processed

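RNA-seq libraries of NCI-H1693 cells were compared between 72 and 48 h of PRT3789. Per the labels' protocols the RNA was poly(A) selected into stranded libraries. Per the labels' protocols and the series' design text the reads went through nf-core/rnaseq 3.17.0 with Trim Galore, STAR and RSEM on GRCh38, and the versions of the single tools are not given in the sources used here. The authors deposited 1 table of expected counts from RSEM, already whole numbers. The column of DMSO replicate 3 at 48 h sums to exactly 27000000, and whether it was scaled or down-sampled is not given in the sources used here. It enters every DMSO change and every difference between the arms. It also enters the estimate of spread behind the PRT3789 test, which called 725 genes higher and 433 lower without it. RSEM divides reads that fit several genes, so near-identical genes are uncertain.

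Genes were filtered by filterByExpr over 4 groups and tested with edgeR 4.0.16 (R 4.3.3) by quasi-likelihood with TMM scaling on the 12 libraries of 48 and 72 h, which leaves 8 residual degrees of freedom. The tests were PRT3789 72 against 48 h, DMSO 72 against 48 h, and the difference of the 2 changes, with Benjamini-Hochberg adjusted p under 0.05 over all genes tested. The procedure was tested on simulated data. Alternatives were other scalings and filters, DESeq2 1.42.0, limma-voom 3.58.1, all 18 libraries, only the groups compared, a replicate block, removal of the length trend, and leaving out each library.

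The comparison, the 35 gene lists and the libraries of the main fit were chosen with earlier results of these data known. Named genes are the 12 largest called rises and falls in PRT3789 (at least 5 CPM, groups not overlapping), the 8 largest differences from DMSO in each direction, and up to 6 called members per list with the smallest p, with SMARCA2, SMARCA4, KRT80 and PLAU. FOS, MYC, IER2, IER5, HSPH1, SRF, DUSP4, ETV1, IGFBP3, BAMBI, SKIL, PMEPA1, TGFBR3, TAGLN, LOXL2, TWIST1, MYL9, LAMB1, ACACA, TRIM25, IFITM1, OASL, ISG20, GBP3, HLA-E, ASNS, PSAT1, CARS1, EDEM1, CLDN4, the Fanconi genes and the genes high in 1 library were named after their values were seen. Some genes are not reported here.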

Additional observations from a re-analysis of the deposited data

Results flagged for a closer look

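For 21 of the 45 named genes with a called difference, those among the largest changes in PRT3789 or the largest differences from DMSO, the change from 48 to 72 h differed between PRT3789 and DMSO by the interaction test of edgeR (adjusted p under 0.05, 12 libraries). None of them was called in the fit with all 18 libraries. The values are the log2 change in PRT3789 minus that in DMSO.

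Among genes that rose in PRT3789 the difference was 1.5 for CLDN16, 0.9 for ID3, 0.63 for PTGS2, 0.54 for IL31RA, 1.06 for HLA-DRB1, 1.04 for CHAC1, 0.88 for MDFI and 0.79 for HLA-F. It was 1.14 for BCAR4, a long non-coding RNA, 0.91 for C4orf48 and 0.86 for H2BC8, where the change within PRT3789 did not pass the test and DMSO fell.

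Among genes that fell in PRT3789 the difference was -1.75 for KISS1, -1 for TMEM130, -0.96 and -0.93 for the 2 rows of PLCXD1 (PLCXD1 and PLCXD1_1), -0.92 for PTGFRN, -0.86 for COL4A1, -0.66 for NID1 and -0.56 for SPARC. It was -0.9 for OXTR and -0.85 for AXL, where the change within PRT3789 did not pass the test and DMSO rose.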

How the results depend on the processing

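Values below are genes higher and genes lower. For PRT3789 at 72 against 48 h (510 and 312) they were 162 and 73 with all 18 libraries, 1287 and 901 with only its 2 groups, 745 and 567 with no filter, 198 and 82 at adjusted p under 0.01, and 72 and 63 at 1.5-fold. Leaving out each library gave 213 to 846 and 104 to 613. For DMSO (1615 and 1420) they were 63 and 25 with all 18 libraries, 628 and 759 with only its 2 groups, 594 and 601 at 0.01, 101 and 194 at 1.5-fold, and 497 to 2676 and 583 to 2243 without single libraries. For the difference between the arms (125 and 169) they were 0 and 0 with all 18 libraries, 464 and 722 with no filter, 332 and 441 by DESeq2, 7 and 4 at 0.01, 34 and 38 at 1.5-fold, and 13 to 1084 and 8 to 1301 without single libraries. The cause of these shifts was not tested. Removing the length trend gave 556 and 326 in PRT3789, 1417 and 1288 in DMSO, and 125 and 133 for the difference. Lower differences then numbered 5 among S phase genes, 2 among G2/M genes and 3 among homologous recombination and Fanconi genes.

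Deviations from the group mean of same-numbered PRT3789 libraries of 48 and 72 h correlated at 0.029, 0.0483 and -0.126. For DMSO the values were -0.293, 0.158 and -0.26. Between the arms they were 0.306, -0.0528 and -0.168 at 48 h, and -0.152, -0.204 and -0.166 at 72 h. With 3 libraries per group these values cannot show whether the same replicate number paired the samples. With the replicate block the counts were 379 and 230 for PRT3789, 1449 and 1222 for DMSO, and 43 and 55 for the difference.

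Of 149 named genes called in PRT3789, 64 were called under every alternative, 85 lost the call in at least 1, and 0 reversed. Of 45 named differences from DMSO, 0 were called under every alternative and 0 reversed. Of the PRT3789 calls, 234 were shared with the 235 made with all 18 libraries, and 805 with DESeq2.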
